A study of Mus musculus with 36 samples.

Results

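The Schlafen family was examined through its 7 members Slfn1, Slfn2, Slfn3, Slfn4, Slfn5, Slfn8 and Slfn9. They are the rows of the deposited count table that carry these gene names, 7 of the 54532 genes in the table. RNA-seq had been run on bone marrow-derived macrophages (BMDMs) to ask what CCM, a small molecule that binds the clock transcription factor BMAL1, does in macrophages with and without BMAL1. The cells came from adult female C57BL/6 mice and were grown with MCSF for 7 days. Both genotypes carried Bmal1 flox/flox. The KO mice also carried LysM-Cre, which drives Cre in myeloid cells, and the WT mice were littermates without Cre. For 6 h the cells received DMSO as the vehicle, 100 uM CCM with DMSO, 100 nM lipopolysaccharide (LPS) with DMSO, or 100 nM LPS with 100 uM CCM. Each treatment had 3 WT and 6 KO libraries, 36 in all, with 13469262 to 28288923 counts on genes per library and a median of 19951421. The study's text gives an n of 3 for WT and 6 for KO with female mice, but the labels do not tie libraries to animals, so each p below measures the spread between these libraries.

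Schlafen genes take their name from the German word for sleeping, because the member described first held T cells in a resting state when it was overexpressed. The proteins share an N-terminal core that binds or cleaves RNA in several members, and the long members add a helicase-like C-terminal region. In mouse macrophages several of these genes are known to be induced by LPS and by type I interferon.

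All 7 members lie in 1 cluster of 264 kb on chromosome 11, between positions 82951349 and 83215154 of mm10 (GRCm38). Along the chromosome their order is Slfn5, Slfn9, Slfn8, Slfn2, Slfn1, Slfn4, Slfn3. The short members are Slfn1 (ENSMUSG00000078763, 83116849 to 83122670), with a gene length of 1864 bases in the table, and Slfn2 (ENSMUSG00000072620, 83065112 to 83070678), with 1664 bases. Slfn3 (ENSMUSG00000018986, 83191330 to 83215154) and Slfn4 (ENSMUSG00000000204, 83175186 to 83190216) are the intermediate members, with 3411 and 3964 bases. The long members are Slfn5 (ENSMUSG00000054404, 82951349 to 82964840), Slfn8 (ENSMUSG00000035208, 83002158 to 83020810) and Slfn9 (ENSMUSG00000069793, 82978390 to 82991830), with 6326, 4091 and 5965 bases.

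The promoters of the members were searched for motifs in windows of 250 bases before to 50 after the start, taken from RefSeq on GRCm38.p6. The table held 8 windows for the 7 members, Slfn8 having 2, among 32851 windows in all. The motif GAAANNGAA, the core of the interferon-stimulated response element, was searched on both strands and is found in 8.56% of all windows. It occurs in the windows of the 3 long members and in none of those of Slfn1, Slfn2, Slfn3 and Slfn4. Because they hold the interferon motif that sets the long members apart, the stretches of 60 bases around the matches are printed 5′ to 3′ on the strand of the gene, with each match on either strand in capitals. They lie at chr11:82951922-82951981 (plus strand) for Slfn5, chr11:82991840-82991899 (minus strand) for Slfn9 and chr11:83020823-83020882 (minus strand) for Slfn8.
Slfn5: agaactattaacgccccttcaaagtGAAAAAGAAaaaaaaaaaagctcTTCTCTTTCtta
Slfn9: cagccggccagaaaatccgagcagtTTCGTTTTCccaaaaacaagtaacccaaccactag
Slfn8: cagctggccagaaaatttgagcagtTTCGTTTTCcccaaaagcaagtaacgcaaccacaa

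The Slfn5 stretch held 2 matches, the one further from the RefSeq start beginning at -155. The window of that start covers 82951852 to 82952151 and lies inside the gene as annotated from 82951349. Sequence before 82951349 was not searched. In Slfn9 the match begins at -44. Both Slfn8 windows hold the same stretch, and its match begins at -47 from 1 RefSeq start and at -135 from the other. The motif CACGTG, the E-box that BMAL1 binds with CLOCK, is found in 7.15% of all windows and in 0 of the 8 member windows. The NF-kB consensus is found in 4.51% of all windows and matched in those of Slfn9, at -214, and Slfn1, at -43. A match describes these letters and is not a measured binding site.

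The targeted gene was read first. Its transcript Arntl (Bmal1) had 7.27, 8.61 and 9.76 CPM (counts scaled to library size with TMM) in the WT vehicle libraries, and 2.97, 7.59 and 7.74 as the lowest, median and highest of the 6 KO vehicle libraries. The log2 fold change of KO against WT came to -0.34 (standard error, SE, of 0.262 and adjusted p = 1 in edgeR's quasi-likelihood test) with vehicle, and the groups overlapped. With LPS the WT libraries had 10.2, 8.02 and 9.30 CPM and the KO libraries 2.13, 7.19 and 9.03, at -0.45 (SE 0.335, adjusted p = 0.986), again with overlap. With CCM they had 9.13, 8.55 and 11.1 in WT and 5.01, 7.29 and 10.7 in KO, which overlapped. With LPS+CCM they had 12.9, 11.5 and 12.5 in WT and 3.94, 6.97 and 9.32 in KO, the only treatment in which the genotypes did not overlap. Between LPS+CCM and LPS, Arntl rose in WT by 0.43 on the log2 scale (SE 0.12, adjusted p = 0.0441) with no overlap, and in KO it was at -0.06 (SE 0.296, adjusted p = 0.96). The interaction of genotype and CCM for Arntl was -0.47 (SE 0.435, adjusted p = 1), so this difference was not shown. Without KO replicate 6, which had the lowest KO value in every treatment, the KO means were 7.42 with vehicle and 7.60 with LPS in place of 6.68 and 6.69, nearer the WT means of 8.55 and 9.16. Counts cover the whole gene, exons outside the deleted segment included, so this is a limited check of the deletion.

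The 4 libraries labelled KO replicate 2 went against their genotype label on 2 other genes, Lyz2 and Lyz1. Arntl alone does not set them apart. They had 7.74 to 10.7 CPM of it, where the WT libraries had 7.27 to 12.9 and the 20 other KO libraries 2.13 to 8.19, several of these also within the WT range. Lyz2 is the lysozyme gene into which the LysM-Cre allele is inserted, and Lyz1 is its neighbouring paralog, with which it can share reads. Lyz2 lay between 11048 and 14663 CPM in the libraries labelled KO replicate 2, between 10418 and 15054 in WT, and at no more than 10186 in the other KO libraries. Lyz1 lay between 2.84 and 5.14 CPM in the libraries labelled KO replicate 2, between 3.13 and 6.33 in WT, and between 31.0 and 134 in the other KO libraries. On both genes these 4 libraries sat with the WT libraries and apart from every other KO library. What gave them these values was not tested, and the counts of members called in KO are given with and without them, with values for the members that changed most. Arntl and the gene lists are given with them only.

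The 4 libraries of KO replicate 6 stood apart in another way. Over genes with a mean of at least 1 CPM, their root mean square log2 deviation from the median of the rest of their group was 1.12 (vehicle), 1.36 (CCM), 1.07 (LPS) and 1.06 (LPS+CCM). The next library was replicate 5 of KO LPS+CCM, at 0.670, and the others lay between 0.231 and 0.429. The deviation ran with gene length. In KO replicate 6 the 2163 genes under 2000 bases were shifted up by medians of 0.87, 0.92, 0.87 and 0.83, in the same order of treatments, and the 6673 genes over 4000 bases by -0.52, -0.63, -0.46 and -0.39. The LPS+CCM libraries of KO replicates 2 and 5 leaned the same way, with medians of 0.32 and 0.62 for the short genes. Among the members, short Slfn2 deviated in KO replicate 6 by 0.83, 1.09, 0.81 and 0.92, and Slfn4 by -1.61, -0.53, -1.56 and -1.58. Slfn5 stayed within 0.00, 0.25, -0.08 and 0.14. The members did not follow the length pattern as a whole. Long Slfn8 went down with the long genes, by -0.62, -0.84, -0.33 and -0.13. Long Slfn9 deviated by -0.09, 0.44, -0.19 and -0.08. Short Slfn1 deviated by -0.37, -0.72, 0.45 and 0.52, and Slfn3 by -0.95, -3.39, -1.07 and -1.05, while the 3736 genes of 2000 to 4000 bases, the class of Slfn3 and Slfn4, had medians of 0.22, 0.19, 0.25 and 0.24.

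**Figure D1:**
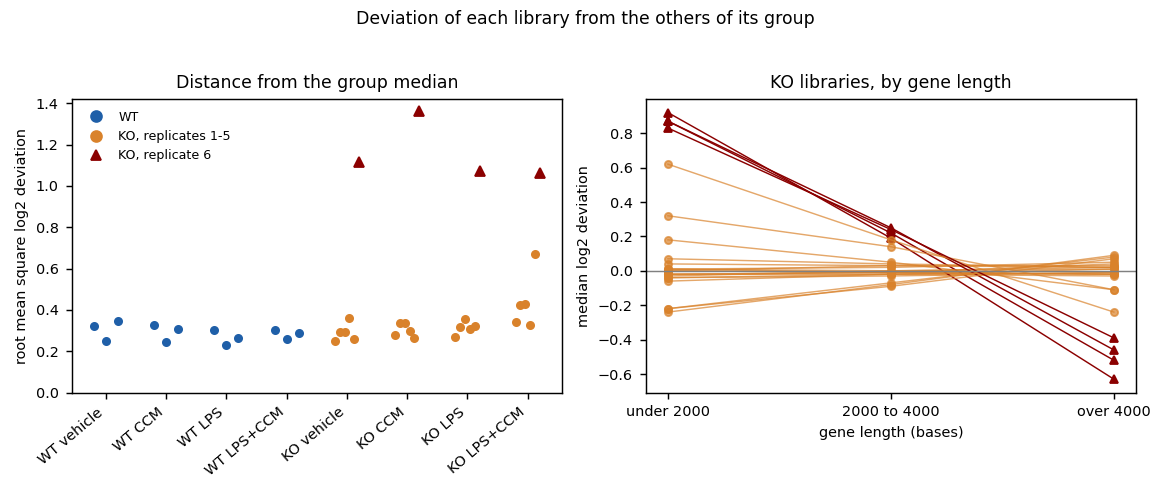
Left, the root mean square log2 deviation of each library from the median of the other libraries of its group (vertical axis) by group. Right, the median log2 deviation of KO libraries (vertical axis) for 3 classes of gene length in bases. The KO replicate 6 libraries (triangles) lie at 1.06 to 1.36, and their short genes are shifted up by 0.83 to 0.92.

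Markers of cell types gave these summed levels. The 7 macrophage markers, led by Lyz2, were all present and summed to between 11236 and 19952 CPM. The 9 neutrophil markers, led by S100a9, summed to between 425 and 1213, with the highest values in KO replicate 6. The 4 fibroblast markers, led by Col1a1, summed to between 271 and 1449, and the 4 proliferation markers, led by Mki67, to between 151 and 389. The markers of T cells (led by Cd4) reached at most 34.4, those of dendritic cells 14.2, of erythroid cells 11.6, of B cells 10.1 and of NK cells 3.05. Every library thus carried the markers that the BMDM label calls for. In bulk libraries, fewer cells with a transcript and less of it per cell cannot be told apart.

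Levels of different members are compared here as CPM per kb of gene length, as means with the SD over the 3 WT libraries of a group. With vehicle, Slfn2 was highest at 85.1 ± 14.8 and Slfn5 next at 15.7 ± 0.534. Slfn9 at 4.35 ± 0.959 and Slfn8 at 4.20 ± 0.587 overlapped. Slfn3 followed at 0.881 ± 0.186 and Slfn1 at 0.524 ± 0.0798, and Slfn4 was lowest at 0.188 ± 0.00701. With LPS the order changed. Slfn2 stood at 946 ± 24.1 and Slfn5 at 182 ± 8.18, both still in front. Slfn1 at 114 ± 11.4 and Slfn8 at 99.5 ± 3.74 overlapped, and Slfn4 moved from the last place to 50.2 ± 6.29. Slfn9 at 17.3 ± 1.54 and Slfn3 at 5.61 ± 0.360 were now the lowest. Summed over the 7 members in CPM, the family went from 289 ± 29.0 with vehicle to 3663 ± 72.8 with LPS and stood at 2723 ± 67.0 with LPS+CCM, with no overlap between these WT groups. It was 278 ± 12.2 with CCM alone, within the range of the vehicle libraries.

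**Figure D2:**
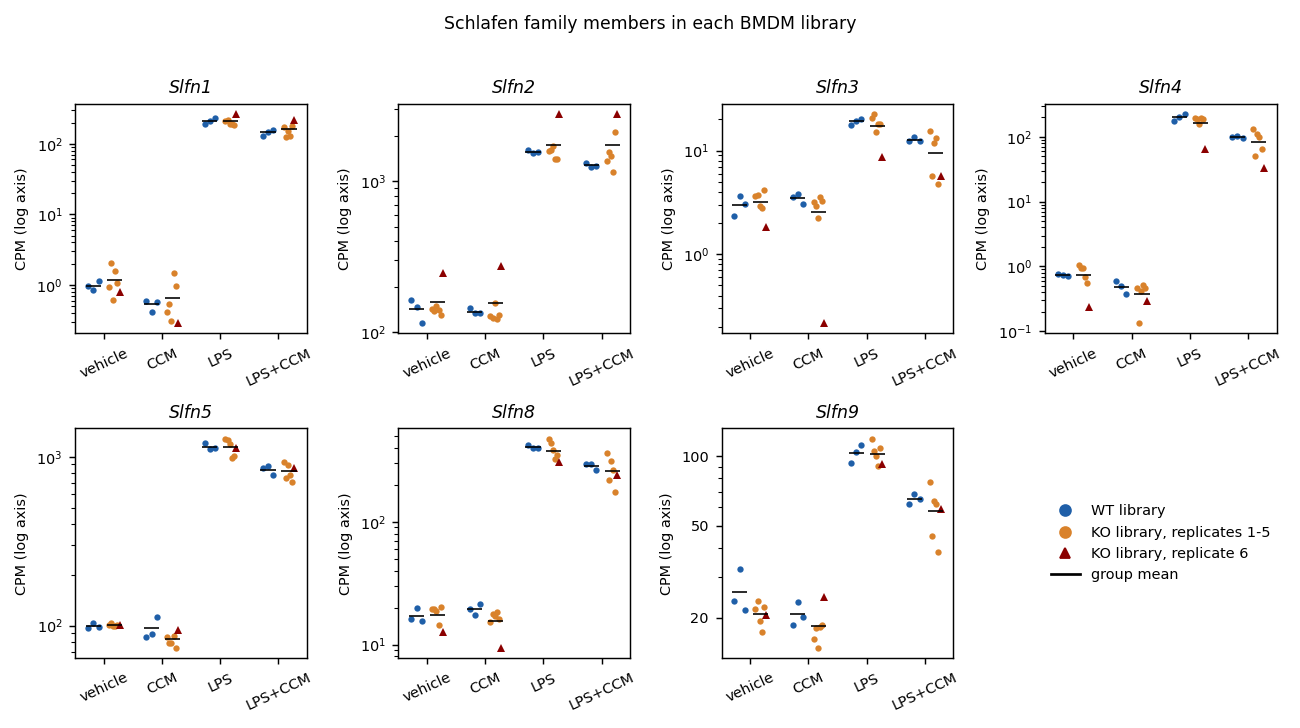
CPM of each member on a log axis (vertical) in every library by treatment, with WT in blue, KO replicates 1 to 5 in orange, KO replicate 6 as triangles and group means as lines. Slfn4 goes from 0.716 to 0.771 CPM in the WT vehicle libraries to 174 to 224 with LPS, and the triangles lie high for Slfn2 and low for Slfn4.

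The question of LPS against vehicle is how far an inflammatory stimulus moves the family. In WT BMDMs all 7 members were called higher (edgeR adjusted p of at most 0.05), where 30.6% of all 14501 genes tested were called higher and 32.4% lower. Every LPS library exceeded every vehicle library for all 7, which 32.9% of all genes showed. The median log2 fold change of the members was 3.53, against -0.053 over all genes.

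Slfn4 is a myeloid member known from developing and activated monocytes and macrophages. Its WT vehicle libraries had 0.771, 0.750 and 0.716 CPM, on 17 to 24 counts, and its LPS libraries 174, 199 and 224. The groups were far apart, and the mean CPM was 267-fold higher. The log2 fold change of 8.06 (SE 0.141, adjusted p = 4.08e-11) was the largest of the family. Slfn1, the short member that gave the family its name, had 0.955, 0.839 and 1.13 CPM with vehicle, on 19 to 38 counts. With LPS it had 192, 210.3 and 234. Again no library lay between the groups, and the log2 fold change was 7.74 (SE 0.129, adjusted p = 3.41e-11) in 3 of 3 pairs of same-numbered libraries.

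Slfn2 is needed for T cells and monocytes to stay quiescent and survive activation, and it was the most abundant member per kb. It had 163, 147 and 115 CPM with vehicle and 1617, 1538 and 1567 with LPS. All LPS libraries were above all vehicle libraries by a log2 fold change of 3.48 (SE 0.115, adjusted p = 2.59e-09). Slfn5, a nuclear long member studied in the interferon response, had 96.6, 103 and 98.7 CPM with vehicle and 1209, 1116 and 1122 with LPS. It rose in 3 of 3 pairs by 3.53 on the log2 scale (SE 0.0642, adjusted p = 4.89e-11). Both genes thus rose from a level already well measured without LPS.

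Slfn8, a long member whose overexpression disturbs T cell development, had 16.2, 19.9 and 15.4 CPM with vehicle and 425, 397 and 399.6 with LPS. Its groups did not overlap, with a log2 fold change of 4.58 (SE 0.0961, adjusted p = 1.05e-10). Slfn9, its close relative, moved least, from 23.7, 32.4 and 21.7 CPM to 93.7, 104 and 112, a log2 fold change of 2.01 (SE 0.136, adjusted p = 5.91e-07). Slfn3, a T cell and gut epithelial member, had 2.35, 3.62 and 3.04 CPM with vehicle and 17.8, 19.4 and 20.3 with LPS. It rose by 2.68 on the log2 scale (SE 0.157, adjusted p = 1.96e-07). For these 3 genes too, 3 of 3 pairs rose, as they must where groups do not overlap.

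In KO BMDMs all 7 members were again called higher, where 22.4% of all 13648 genes tested were called higher. Every KO LPS library exceeded every KO vehicle library for all 7, which 15.7% of all genes showed. The largest log2 fold changes were 7.74 for Slfn4 (SE 0.364, adjusted p = 1.7e-09) and 7.45 for Slfn1 (SE 0.287, adjusted p = 3.2e-10), both higher in 6 of 6 pairs. Slfn8 rose by 4.42, Slfn5 by 3.49, Slfn2 by 3.47, Slfn3 by 2.41 and Slfn9 by 2.29, each in 6 of 6 pairs and with an edgeR adjusted p of at most 1.92e-06. Slfn4 had a lowest, median and highest value of 0.241, 0.808 and 1.05 CPM in KO vehicle libraries and 64.2, 188 and 197 in KO LPS libraries. Slfn2 had 129, 140.2 and 248, then 1395, 1598 and 2788. The groups were far apart, and KO replicate 6 was the lowest library for Slfn4 and the highest for Slfn2 in both treatments. With the libraries labelled KO replicate 2 left out, all 7 were still called, with Slfn4 at 7.78 and Slfn1 at 7.67. With KO replicate 6 left out they were 7 as well. Because same-numbered KO libraries deviated together here, the fit was repeated with replicate as a block. It called 9774 genes in place of 6433, the same 7 members among them.

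**Figure D3:**
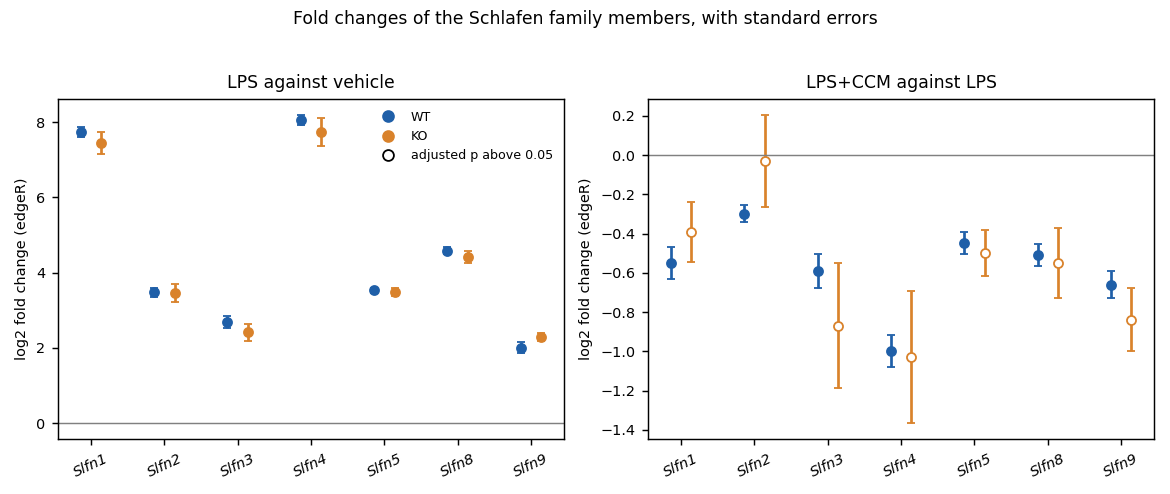
Log2 fold changes from edgeR with standard errors (vertical axis) for each member in WT (blue) and KO (orange), for LPS against vehicle and for LPS+CCM against LPS, with open circles where the adjusted p was above 0.05. Slfn4 has the largest value in both genotypes for LPS, 8.06 and 7.74, and all 7 WT values lie below 0 for LPS+CCM.

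The LPS response of a member was not shown to differ between the genotypes. The interaction of genotype and LPS called 0 of the 7 members and 0% of the 15093 genes tested with edgeR. At an unadjusted p under 0.05 it had 0 members and 112 genes, and DESeq2 called 0 genes. The member values were -0.29 for Slfn1 and Slfn4, -0.25 for Slfn3, -0.13 for Slfn8, -0.03 for Slfn5, 0.01 for Slfn2 and 0.31 for Slfn9 (SE 0.189). In counts simulated for this interaction, 14% of 200 genes given a log2 difference of 1 were called, so in a gene drawn at random it would mostly be missed. The SEs of the members ran from 0.129 for Slfn5 to 0.466 for Slfn4, and the share among members was not simulated. KO and WT libraries were also compared directly. With vehicle, edgeR called 0 members and 0% of 14385 genes, 0 members and 118 genes had an unadjusted p under 0.05, and DESeq2 called 1 gene, not a member. The log2 fold changes of KO against WT were -0.30 for Slfn9, 0.02 for Slfn4, 0.04 for Slfn5, 0.05 for Slfn8, 0.10 for Slfn3, 0.17 for Slfn2 and 0.28 for Slfn1. With LPS, edgeR called 0 members and 0% of 13794 genes, 0 members and 105 genes had an unadjusted p under 0.05, and DESeq2 called 1 gene, again not a member. The values were -0.27 for Slfn4 (SE 0.294), -0.16 for Slfn3, -0.10 for Slfn8, -0.02 for Slfn1, -0.01 for Slfn5 and Slfn9 and 0.15 for Slfn2 (SE 0.212). In counts simulated for these 2 comparisons, 22.5% of 200 genes given a log2 change of 1 were called with vehicle and 40.5% with LPS. With each library left out in turn, the libraries labelled KO replicate 2 and those of KO replicate 6 included, these counts of members remained 0.

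Genes of the type I interferon pathway were read beside the family under LPS. Of 13 listed signalling genes 12 were tested in WT, and 11 were called higher and 0 lower, with a median log2 fold change of 2.40. Irf3, the factor activated without new synthesis, was the gene not called, at 0.19 (SE 0.087, adjusted p = 0.0863). The ligand gene Ifnb1 had 0 counts in every WT vehicle library and 1.95, 1.29 and 1.68 CPM with LPS, and any value above the median leaves that median as it is. The feedback protease Usp18 rose by 7.45. All 14 interferon-stimulated comparison genes were called higher, with a median of 7.45, and so were all 9 inflammatory comparison genes, with a median of 6.66. In KO the counts were the same, 11 of 12, 14 of 14 and 9 of 9, with medians of 2.53, 7.22 and 6.38. Without KO replicate 6 they were 12 of 12, 14 of 14 and 9 of 9, with medians of 2.35, 7.11 and 6.24. The member median of 3.53 in WT lay between the first of these lists and the others. Cell type markers also moved with LPS in WT. Of those tested, 2 of 7 macrophage markers were called higher and 4 lower, with a median of -0.27. For neutrophil markers 2 of 8 were higher and 6 lower (median -1.09), and 3 of 4 proliferation markers were lower (median -1.37). Over all genes 30.6% were called higher and 32.4% lower. Dendritic cell markers had 2 of 4 higher and 1 lower, with a median of 1.54. T cell markers had 1 of 2 higher and 1 lower, B cell markers 1 of 2 lower and NK cell markers 1 of 1 lower. In KO, 2 of 7 macrophage markers were higher and 1 lower, and 1 of 8 neutrophil markers higher and 4 lower. Also in KO, 3 of 4 proliferation markers were lower and 2 of 3 dendritic cell markers higher.

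LPS+CCM against LPS asks whether CCM changes the level reached under LPS. In WT BMDMs all 7 members were called lower with CCM, where 7.78% of all 13579 genes tested were called lower. Every LPS+CCM library lay below every LPS library for all 7 members, which 15.3% of all genes showed. The median log2 fold change of the members was -0.55, against 0.014 over all genes.

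Slfn4 changed most. Its LPS+CCM libraries had 97.5, 104 and 97.0 CPM, all below the lowest LPS library at 174. It fell by 1.0 on the log2 scale (SE 0.0816, adjusted p = 6.28e-05), and its mean CPM was lower by 49.9%. Slfn9, with 62.1, 68.5 and 65.4 CPM, followed at -0.66 (SE 0.0704, adjusted p = 0.000223). Slfn3 had 12.4, 13.4 and 12.3 CPM and a log2 fold change of -0.59 (SE 0.0867, adjusted p = 0.00164). Slfn1 had 131, 146 and 159 CPM and a log2 fold change of -0.55 (SE 0.0821, adjusted p = 0.00187). In each of these genes 3 of 3 pairs were lower, as they must be without overlap. The long members Slfn8 and Slfn5 came next. Slfn8, at 294, 297 and 265 CPM, had a log2 fold change of -0.51 (SE 0.0547, adjusted p = 0.000227). Slfn5, at 853, 881 and 780.2 CPM, had one of -0.45 (SE 0.0555, adjusted p = 0.000507). Slfn2 changed least, to 1321, 1240.2 and 1268 CPM, a log2 fold change of -0.30 (SE 0.0436, adjusted p = 0.00149) that was lower in 3 of 3 pairs, by 0.29 to 0.31. Even so, its mean was lower by 18.9% with no overlap. These calls held for all 7 members under each alternative, and no called value changed sign. Same-numbered WT libraries also deviated together here, and a fit that blocked on replicate called 3220 genes in place of 1621, the 7 members among them. Against vehicle, the WT LPS+CCM libraries were still far higher, with the lowest Slfn4 value at 97.0 CPM against at most 0.771.

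In KO BMDMs 0 of the 7 members were called between LPS+CCM and LPS by edgeR, where 0.112% of all 13386 genes tested were called. At an unadjusted p under 0.05 there were 6 members and 1070 genes, and DESeq2 called 180 genes, Slfn5 and Slfn9 among them. All 7 log2 fold changes were negative, with a median of -0.55 against 0.004 over all genes. For Slfn5 and Slfn9 every LPS+CCM library lay below every LPS library, which 0.725% of all genes showed, and the other 5 members overlapped.

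Slfn4 had a lowest, median and highest value of 64.2, 188 and 197 CPM in the KO LPS libraries and 32.9, 82.1 and 134 with LPS+CCM. It was lower in 6 of 6 pairs, and only KO replicate 6 with LPS brought the groups into overlap. The log2 fold change was -1.03 (SE 0.336, adjusted p = 0.354), which failed the correction. Slfn9 went from 90.6, 103 and 119 to 38.6, 60.6 and 77.3 CPM, lower in 6 of 6 pairs with no overlap, at -0.84 (SE 0.161, adjusted p = 0.0679). Slfn5 went from 989, 1156 and 1277 to 705, 817 and 931 CPM, also without overlap, at -0.50 (SE 0.116, adjusted p = 0.121). Both missed the threshold. Slfn3 stood at -0.87 (edgeR adjusted p = 0.436), Slfn8 at -0.55 (0.345) and Slfn1 at -0.39 (0.506), each lower in 6 of 6 pairs. Same-numbered libraries correlated in their deviations at -0.1 to 0.808 here, and 4 of 6 best with their own number, so the pairs were not taken as a design. Slfn2 was at -0.03 (SE 0.236, adjusted p = 0.973), lower in 5 of 6 pairs as counted on unrounded ratios and higher by 0.60 in replicate 5.

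**Figure D4:**
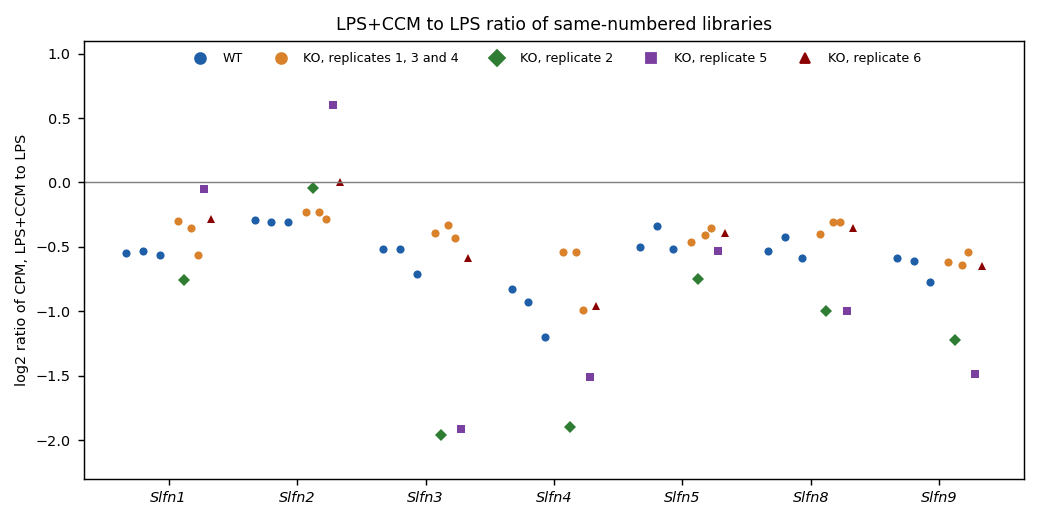
Log2 ratio of CPM, LPS+CCM to LPS (vertical axis), for each member in pairs of same-numbered libraries, with WT in blue and KO replicates by marker. The 3 WT pairs of Slfn4 lie at -0.83, -0.93 and -1.20, the KO pairs between -1.90 and -0.54, and replicates 2 and 5 are the lowest KO pairs for Slfn3, Slfn4 and Slfn9.

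The KO result moved with the libraries and the fit. With single replicates left out 0 to 3 members were called, and over all alternatives 0 to 5. The 5 were Slfn1, Slfn4, Slfn5, Slfn8 and Slfn9, called lower in a fit that blocked on replicate. That fit called 777 of all 13386 genes in place of 15, and the numbers were not taken to pair these libraries. Without KO replicate 6 edgeR called Slfn4 (-1.02, adjusted p = 0.0441), Slfn5 (-0.50, adjusted p = 0.0493) and Slfn9 (-0.87, adjusted p = 0.0293), where 1.27% of 13429 genes were called. Without the libraries labelled KO replicate 2 edgeR called 0 members and 0 genes, and Slfn4 stood at -0.88, Slfn9 at -0.78 and Slfn5 at -0.45. Over all alternatives the adjusted p ran from 0.00733 to 0.997 for Slfn4, from 0.00416 to 0.724 for Slfn5 and from 0.000564 to 0.528 for Slfn9, and all values stayed negative. The pairs labelled KO replicate 2 and KO replicate 5 had the strongest drops, -1.96 and -1.91 for Slfn3 and -1.90 and -1.51 for Slfn4. The LPS+CCM libraries of both pairs are ones whose short genes were shifted up, and the part of gene length in these drops was not tested. Spread between libraries was wider in KO, where edgeR's common biological coefficient of variation reached 0.315 against 0.078 in WT. That KO fit included KO replicate 6 and replicate 5 of KO LPS+CCM, the libraries that deviated most. Their part in the wider spread was not tested. In counts simulated for these comparisons, 43.5% of 200 genes given a log2 change of 1 were called among 13386 genes in KO, and 80.5% of 200 among 13579 in WT. Of all calls in these simulations, 3.33% in KO and 10.1% in WT were false.

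The CCM effect under LPS was not shown to differ between the genotypes for any member. The interaction of genotype and CCM called 0 of the 7 members and 0% of 14546 genes with edgeR. At an unadjusted p under 0.05 it had 0 members and 72 genes, and DESeq2 called 0 genes. The member values had wide errors and included -0.02 for Slfn4 (SE 0.502), -0.03 for Slfn5 (SE 0.164) and -0.17 for Slfn9 (SE 0.238). Slfn3 was at -0.27, Slfn8 at -0.03, Slfn1 at 0.18 and Slfn2 at 0.29. In counts simulated for this interaction, 1% of 200 genes given a log2 difference of 1 were called. Those 200 were drawn at random from all genes tested, while the SEs of the members ran from 0.164 to 0.502. The share therefore does not say how often such a difference would be called in a member. Without KO replicate 6 Slfn4 was at -0.01 (SE 0.305), and without the libraries labelled KO replicate 2 at 0.13, with 0 members called in both.

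Genes of the interferon and inflammatory lists were also called lower in WT, in part or in whole. With CCM under LPS, 6 of 12 signalling genes tested were called lower and 0 higher, at a median log2 fold change of -0.32. Ifnb1 had 0.476, 0.366 and 0.260 CPM, below its 1.29 to 1.95 with LPS alone, at -2.14 (SE 0.354, adjusted p = 0.00322) on few counts. Irf7 fell by 0.45 and Usp18 by 0.64 on the log2 scale, while Ifnar1, a receptor chain, was at 0.06 and not called. All 14 interferon-stimulated comparison genes were called lower, with a median of -0.50, and 8 of 9 inflammatory comparison genes, with a median of -0.48. The member median was -0.55, and no test compared the lists with the members. In KO edgeR called 0 genes of the 3 lists, with medians of -0.31, -0.47 and -0.44, and 1, 5 and 2 genes lower without KO replicate 6. Of the cell type markers tested in WT, 1 of 7 macrophage markers was called higher and 2 lower, with a median of 0.03. For neutrophil markers 1 of 7 was called lower, with a median of -0.13, and no marker of the other lists was called. Over all genes 4.15% were called higher and 7.78% lower.

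CCM alone was compared with vehicle to see whether it acts without a stimulus. In WT edgeR called 0 members and 0.057% of 14024 genes. At an unadjusted p under 0.05 there were 1 member and 1404 genes, and DESeq2 called 247 genes with no member among them. Slfn1 had 0.596, 0.416 and 0.576 CPM with CCM, each below the vehicle libraries, on 9 to 14 counts. Its log2 fold change was -0.90 (SE 0.318, adjusted p = 0.402). Slfn4 had 0.596, 0.508 and 0.370 CPM, also below the vehicle libraries, at -0.62 (SE 0.331, adjusted p = 0.575). This lack of overlap, found for 2 members, was shown by 6.5% of all genes, and neither value passed the test at this depth. The other 5 members overlapped, with values of -0.34 (Slfn9), -0.07 (Slfn2), -0.06 (Slfn5), 0.17 (Slfn8) and 0.21 (Slfn3).

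In KO, CCM alone called 0 members and 0% of 13799 genes with edgeR. At an unadjusted p under 0.05 there were 2 members, Slfn4 and Slfn5, and 333 genes, and DESeq2 called 24 genes and no member. All 7 log2 fold changes were negative. The largest were -0.94 for Slfn4 (SE 0.364, adjusted p = 1), lower in 5 of 6 pairs, and -0.81 for Slfn1 (SE 0.436, adjusted p = 1), lower in 6 of 6 pairs, and in both the groups overlapped. Slfn3 was at -0.30, Slfn9 at -0.17, Slfn8 at -0.16 and Slfn2 at -0.01, also with overlap. Slfn5 had 99.9, 100.8 and 103 CPM as the lowest, median and highest of the KO vehicle libraries and 74.1, 82.4 and 94.4 with CCM. The groups did not overlap, which 0.261% of all genes showed in this direction, and 6 of 6 pairs were lower. The log2 fold change was -0.28 (SE 0.0838, adjusted p = 1). Same-numbered libraries deviated together here too. In the fit that blocked on replicate Slfn5 was called at -0.28 (edgeR adjusted p = 0.0163), where 3.11% of all genes were called. Without KO replicate 6 it was called at -0.33 (edgeR adjusted p = 0.00929), where 1.01% of 13899 genes were. Without the libraries labelled KO replicate 2 it was at -0.25 and not called, Slfn4 was at -0.69 and Slfn1 at -0.52, and 0 members were called. Over all alternatives the adjusted p of Slfn5 ran from 0.00929 to 1. In WT, Slfn5 had 86.1, 89.5 and 113 CPM with CCM, which overlapped the vehicle libraries, at -0.06 (SE 0.101).

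Whether CCM acts differently with and without LPS was tested as an interaction. In WT 1 member, Slfn8, was called, where 1.62% of all 14747 genes were called in the same direction. Its CCM libraries had 19.5, 17.5 and 21.5 CPM without LPS, which overlapped the vehicle values of 15.4 to 19.9, while with LPS every CCM library was lower. The interaction was -0.70 (SE 0.128, adjusted p = 0.0124). The call was lost with any 1 WT replicate left out, at values of -0.66, -0.95 and -0.52 and adjusted p of 0.0928, 0.095 and 0.183 for replicates 1, 2 and 3, and over all alternatives the adjusted p ran from 3.24e-08 to 0.183. Slfn3 at -0.81 (edgeR adjusted p = 0.0547) and Slfn5 at -0.41 (edgeR adjusted p = 0.11) missed the threshold. Over all alternatives their adjusted p ran from 0.0192 to 0.324 for Slfn3 and from 0.00252 to 0.407 for Slfn5, so both were called under some. Slfn4 was at -0.39, Slfn9 at -0.34 and Slfn2 at -0.25. Slfn1 had the only positive value, 0.35 (SE 0.282). In KO edgeR called 0 members and 0.00685% of 14588 genes. There, 1 member and 536 genes had an unadjusted p under 0.05, and DESeq2 called 12 genes. That member was Slfn9, at -0.65 (SE 0.207, adjusted p = 1), and at -0.63 without the libraries labelled KO replicate 2, where 0 members were called. Slfn3 was at -0.55, Slfn8 at -0.38, Slfn5 at -0.20, Slfn4 at -0.06, Slfn2 at 0.00 and Slfn1 at 0.45. In counts simulated for this interaction, 55% of 200 genes given a log2 difference of 1 were called in WT and 15.5% of 200 in KO.

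Relatives outside the 7 members were read as well. The pseudogene Slfn10-ps lies between Slfn8 and Slfn2 and had 8.45, 12.2 and 9.91 CPM in WT vehicle libraries and 21.5, 22.4 and 23.9 with LPS. It rose by 1.16 on the log2 scale (SE 0.13, adjusted p = 2.71e-05) and was at -0.20 with CCM under LPS (SE 0.0879, adjusted p = 0.186), lower in 3 of 3 libraries against the lowest LPS library. Slfn14 had 0 to 18 counts per library and passed the filter only in 3 interactions, where it was not called. Slfnl1, which lies on chromosome 4, had 0 to 4 counts per library and was not tested.

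The cluster has neighbours on both sides. Of 57 other genes within 500 kb of a member, 23 were tested for LPS in WT, with a median log2 fold change of 0.75. Of the 23, 15 were called higher and 3 lower, where 30.6% and 32.4% of all genes were. The chemokine genes Ccl5 (10.51), Ccl3 (5.36) and Ccl4 (5.29) and the gene Heatr9 (7.22) changed most. With CCM under LPS 23 were tested, with a median of -0.04. Of the 23, 0 were called higher and 3 lower, where 4.15% and 7.78% of all genes were. The 3 called lower were Ccl3 at -0.85, Ccl4 at -0.58 and Ccl5 at -0.20. Within the cluster, 13 genes outside the family are annotated, and 2 of them, Gm11425 and Gm20234, had a mean of at least 1 CPM. With LPS in WT, edgeR called both higher, Gm20234 at 3.23 (SE 0.345, adjusted p = 1.91e-05) and Gm11425 at 1.03 (SE 0.2, adjusted p = 0.00121). With CCM under LPS, Gm20234 was at 0.09 (SE 0.189, adjusted p = 0.824) and Gm11425 at -0.06 (SE 0.161, adjusted p = 0.857) in WT. Neither was called with CCM under LPS, and a difference from the members was not tested.

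**Figure D5:**
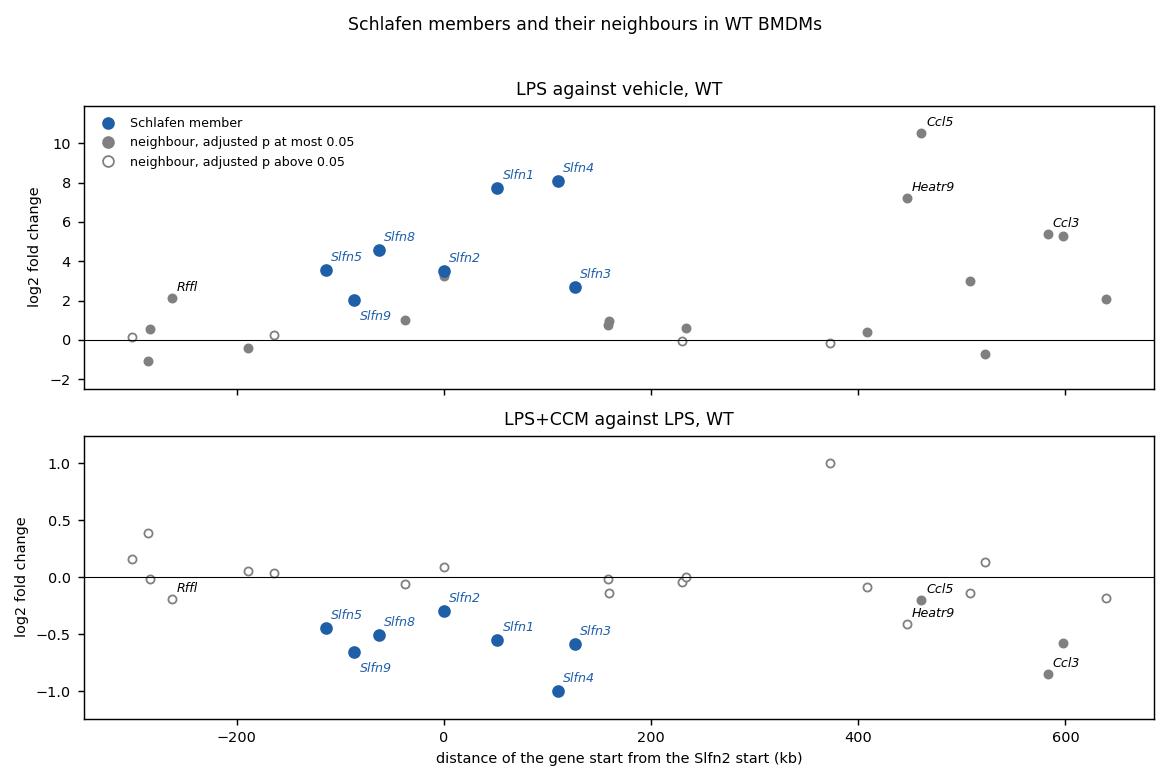
Log2 fold changes in WT BMDMs (vertical axis) against the distance of each gene start from the Slfn2 start in kb, for LPS against vehicle (top) and LPS+CCM against LPS (bottom), with members in blue and neighbours of at least 1 mean CPM in grey. All 7 members lie between -1.0 and -0.30 in the lower panel, where the neighbours have a median of -0.04.

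The genes whose log2 CPM ran most like each member over the 36 libraries were taken from 12572 genes with a mean of at least 1 CPM. For Slfn5 they were Samhd1 and Sp110 (Pearson's r of 0.998 each), and for Slfn8 Parp12 and Irgm2 (0.998 each). For Slfn2 they were Pnp (0.998) and H2-T22 (0.997), for Slfn1 Phf11b and Gbp2 (0.996 each) and for Slfn4 Sp100 (0.995). Slfn3 and Slfn9 were less closely matched, with Mcmbp (0.976) and Triobp (0.976). Over the 21 pairs of members r ran from 0.745 (Slfn2 and Slfn3) to 0.993 (Slfn5 and Slfn8). These libraries fall into clusters with and without LPS that all the genes share, so r here describes that split first.

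Some reads of the family may be shared, and the counts are uncertain to that extent. The labels do not give the strand setting of the counting. Slfn5 overlaps the antisense gene Slfn5os (0 to 9 counts per library), Slfn2 overlaps Gm20234 and Slfn9 overlaps Mir7679. Of all runs of 100 bases in the transcripts of a member, 6.40% in Slfn5 also occur in another gene, mainly Slfn5os. The share was 3.71% in Slfn9 and 3.38% in Slfn8, mainly with Slfn10-ps, and 2.92% in Slfn3, mainly with Gm11427. It was 0.271% in Slfn4, 0.128% in Slfn2 and 0% in Slfn1. For runs of 50 bases it rose to between 0.606% in Slfn1 and 16.0% in Slfn3, which makes Slfn1 the least uncertain on this score.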

How the data were processed

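RNA had been taken from 36 BMDM cultures, and the authors deposited one table of gene counts with a gene length column. Per the labels, reads from poly(T)-selected, paired-end libraries were trimmed with fastp, aligned to mm10 with HISAT2 2.0.5 and counted with featureCounts 1.5.0-p3. Whether counting used strand is not stated. Of 54532 genes, 23675 had 0 counts in every library.

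From these counts, CPM were computed with TMM scaling over all 36 libraries, and CPM per kb with the deposited gene length. Log2 CPM used a prior count of 2. Only the groups of a comparison entered its fit in edgeR 4.0.16 (R 4.3.3) with filterByExpr and TMM. The quasi-likelihood test was used, with Benjamini-Hochberg adjustment over all genes tested and a threshold of 0.05. The steps were tested on simulated data, where false calls for LPS in WT made up 8.54% of calls among 14501 genes. The 200 genes given a change were drawn at random from all genes tested in a comparison, so recovered shares describe such genes and not the members. Fold changes, standard errors and p come from that test unless DESeq2 1.42.0 is named. Interactions were fitted on 4 groups. A pair of libraries means 2 of the same genotype and replicate number. Where 2 groups do not overlap, all pairs must go the same way, so a count of pairs adds nothing there.

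The alternatives were RLE scaling, DESeq2, no filter on low counts, the replicate number as a block, and each replicate left out. The omission of KO replicate 6 together with replicate 5 of KO LPS+CCM was chosen after seeing the data, as were the list counts without KO replicate 6. Deviations of same-numbered libraries from their group means were checked for shared direction. All such correlations were above 0.1 for LPS in KO (0.299 to 0.829), CCM in KO (0.338 to 0.842) and LPS+CCM against LPS in WT (0.151 to 0.36), so the numbers were taken to pair those libraries.

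The rule for named genes was all 7 members in every comparison, and beside them genes drawn from Arntl, the family's relatives, the lists, neighbours within 500 kb and the genes most like each member. The members and lists were chosen with earlier results of these data known, and Lyz2 and Lyz1 were singled out after their values were seen. The lists were type I interferon signalling, interferon-stimulated comparison genes, inflammatory comparison genes, and markers of macrophages, neutrophils, T cells, NK cells, B cells, dendritic cells, erythroid cells, fibroblasts and proliferation. Positions come from GENCODE M21, which holds 54409 of the genes, 53462 with identical coordinates.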

Additional observations from a re-analysis of the deposited data

Results flagged for a closer look

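In groups of 6 KO libraries, a library far from the other 5 was looked for in 32 groups, and chance alone flags about 1 in 20 groups. There were 6 flags, all on KO replicate 6. Slfn2 was far above the rest with vehicle (248 CPM), CCM (272 CPM) and LPS (2788 CPM). Slfn4 was far below the rest with LPS (64.2 CPM), Slfn8 with CCM (9.44 CPM), and the pseudogene Slfn10-ps with CCM, at 0 CPM. These are the libraries whose deviations ran with gene length over all genes. The cause was not tested.

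Among 28 interaction values of the members with LPS, CCM and genotype, the effect of CCM differed between cells with and without LPS by the test in WT for Slfn8, at -0.70. This call was lost without any 1 of the WT replicates.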

How the results depend on the processing

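The 12 comparisons gave 924 member values under alternatives. Of these, 900 kept their side of the threshold, 21 became called and 3 lost a call. No called value changed sign, and 62 uncalled values among the 900 did. All 7 members remained called for LPS in both genotypes and for LPS+CCM against LPS in WT.

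Calls of members moved in 3 comparisons. For CCM in KO the count of 0 became 1 (Slfn5) with the replicate block and 0 to 1 with a replicate left out. For LPS+CCM against LPS in KO, 0 became 2 with DESeq2 (Slfn5, Slfn9), 5 with the replicate block (also Slfn1, Slfn4, Slfn8), 0 to 3 with a replicate left out, and 4 (Slfn1, Slfn4, Slfn5, Slfn9) without KO replicate 6 and the KO LPS+CCM library 5, an omission chosen after seeing the data. Not every same-numbered correlation there was above 0.1, so the block is not taken as a pairing. For LPS by CCM in WT, 1 became 2 with RLE (Slfn3, Slfn8), 2 with DESeq2 (Slfn5, Slfn8), 3 without the filter (Slfn3, Slfn5, Slfn8), 2 with the replicate block (Slfn3, Slfn8) and 0 with any replicate left out. The block changed no other member call. The cause was not tested.

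Counts of all genes moved by 1.5 times or more as follows. With DESeq2, CCM in WT went from 8 to 247, CCM in KO from 0 to 24, LPS+CCM against LPS in KO from 15 to 180, KO against WT from 0 to 1 with vehicle and with LPS, and LPS by CCM from 308 to 696 in WT and from 1 to 12 in KO. Without the filter, CCM in WT gave 377, LPS+CCM in KO 10, and LPS by CCM 721 in WT and 0 in KO. The block gave 255 for CCM in WT, 429 for CCM in KO, 9774 in place of 6433 for LPS in KO, 3220 in place of 1621 for LPS+CCM in WT, 777 for LPS+CCM in KO, 1 for KO against WT with LPS, and 548 and 81 for LPS by CCM. Without KO replicate 6 and library 5, LPS+CCM in KO gave 330 and LPS by CCM in KO 13. With a replicate left out the counts ran from 0 to 16 (CCM in WT), 0 to 141 (CCM in KO), 893 to 1352 (LPS+CCM in WT), 0 to 170 (LPS+CCM in KO), 0 to 1 (KO against WT with LPS), 0 to 174 (LPS by CCM in WT) and 0 to 10 (in KO). Without LPS, Slfn1 and Slfn4 had few counts, which limits what CCM alone can show for them.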
